A study of Saccharomyces cerevisiae with 4 samples.

Results

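The hypoxic genes of baker's yeast described here are 10 genes named by their systematic identifiers: the cell wall genes DAN1, DAN4, TIR1, TIR2, TIR3 and TIR4, the isoform genes AAC3 and ANB1, the heme synthesis gene HEM13, and ROX1, which encodes their repressor. All 10 were found among the 7126 rows of the expression table. Poly(A) RNA of strain BY4741, a laboratory strain that descends from S288C, was sequenced in 4 libraries. The cells of all 4 held CRISPR interference components: a dead Cas9 protein, directed by a guide RNA, sits on the matching DNA and blocks transcription there. The 2 +116 libraries, A and B, carried a guide against the GAL10 noncoding RNA. The 2 scrambled libraries, also A and B, carried a guide with a scrambled sequence. All cultures grew on glucose in synthetic medium that lacked leucine and uracil, to an optical density of 0.4. The labels give no oxygen supply, no plasmid or promoter for the dead Cas9, and no origin of the cultures lettered A and B, so p-values measure the spread between these libraries, which may be technical.

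In yeast growing in air, heme is made and the heme-binding activator Hap1 drives transcription of ROX1. Rox1 then represses hypoxic genes together with the corepressor Tup1-Cyc8. When oxygen and heme run short Rox1 is lost, and the activator Upc2 turns on the DAN and TIR genes, whose mannoproteins take the place of the aerobic wall proteins Cwp1 and Cwp2. The S288C lineage is known to carry a transposon insertion in HAP1 that weakens this activator.

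Some of these genes carry the letters of known control elements before their start codons, and these are shown because Rox1 and Upc2, the regulators of this group, are known to act through such elements. No match was found before AAC3, ROX1, TIR1 or TIR2, which says only that these letters are not in the window searched. The sequences are those of the RefSeq R64 assembly, found by gene name. The expression table names no genome build, so chromosome positions are not given. The 500 bases before each start codon were searched on both strands for the Rox1 core ATTGTTCTC, the AR1 element TCGTTNAG of anaerobic genes and the sterol response element TCGTATA, which do not overlap one another in the sites found. Capitals mark the match, and each site is written 5′ to 3′ on the strand that carries it. The base given is the end of the match farther from the start codon. It is the first capital of a gene-strand site and the last capital of an opposite-strand site.
ANB1, Rox1 core, gene strand, from base 281 before the start: ttttcgccctATTGTTCTCgagcctaaaa
ANB1, Rox1 core, gene strand, from base 214: ttcctattccATTGTTCTCtttggtaaac
HEM13, Rox1 core, gene strand, from base 182: tgctttgcccATTGTTCTCgtttcgaaag
DAN1, AR1, gene strand, from base 412: tattttatctgTCGTTTAGcacatatggcc
DAN1, AR1, gene strand, from base 180: ctaacaaaacaTCGTTCAGgaacagagaat
DAN4, AR1, gene strand, from base 196: taagatctccaTCGTTCAGgaactgtaaaa
TIR4, AR1, opposite strand, from base 223: ttagaaatgcaTCGTTTAGgaaccctgttc
DAN1, sterol response element, opposite strand, from base 203: tgttagaggccTCGTATAgatcttggcat
DAN4, sterol response element, opposite strand, from base 222: ttaaacagatcTCGTATAatttttgacat
TIR3, sterol response element, opposite strand, from base 421: cgaagtacgccTCGTATAaggccaatgtc
The Rox1 core stood before 2 of the 10 genes and before 1.13% of 6000 protein-coding genes. The AR1 element stood before 3 of the 10 and 5.12% of all, and the sterol element before 3 of the 10 and 7% of all. A match is a description of the letters and not a measured site.

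The libraries held 36731031 to 37077366 gene-assigned reads with the +116 guide and 34215480 to 40628383 with the scrambled guide. Values are normalized reads, meaning read counts after the authors scaled each library by a size factor, and 6277 genes with a mean of at least 5 were tested with limma on log2(value + 1), 2 libraries against 2. MET17, which BY4741 lacks, was at 0 in all libraries. The targeted locus differed between the guides, with GAL1 at a log2 fold of −1.81 and GAL10 at 0.80 (limma adjusted p = 3.7e-06 and 0.0403).

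None of the 10 hypoxic genes passed the test, which 0.844% of tested genes did, and the most unusual value among them belonged to 1 library. DAN1 was almost absent from +116 A and at a like low level in each of the other 3 libraries. DAN4, the gene next to it, was higher in both +116 libraries than in both scrambled ones without passing the adjusted threshold. ROX1 and HEM13, the most abundant of the 10, had +116 means of 0.989 and 0.985 times the scrambled means, a difference within their spread.

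Levels per kilobase of coding length ordered the genes from ROX1 to DAN1. ROX1 averaged 3398 normalized reads per kb (SD 279.2, n = 4 libraries) and HEM13 averaged 2899 (SD 59.9, n = 4), above 74.4% and 71.2% of tested genes. TIR3 followed at 743.9 and TIR2 at 606.4 reads per kb. Each of these 4 lay apart from the next, with no overlap of their ranges over the libraries. AAC3 (427.9), TIR1 (402.4), TIR4 (369.1), ANB1 (366.5) and DAN4 (310.0) then overlapped from each to the next. DAN1, at 56.5 reads per kb, lay below all of them, with only 3.44% of tested genes lower. Of the 8 hypoxic genes other than ROX1 and HEM13, TIR3 ranked highest, above 27.2% of tested genes.

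**Figure D1:**
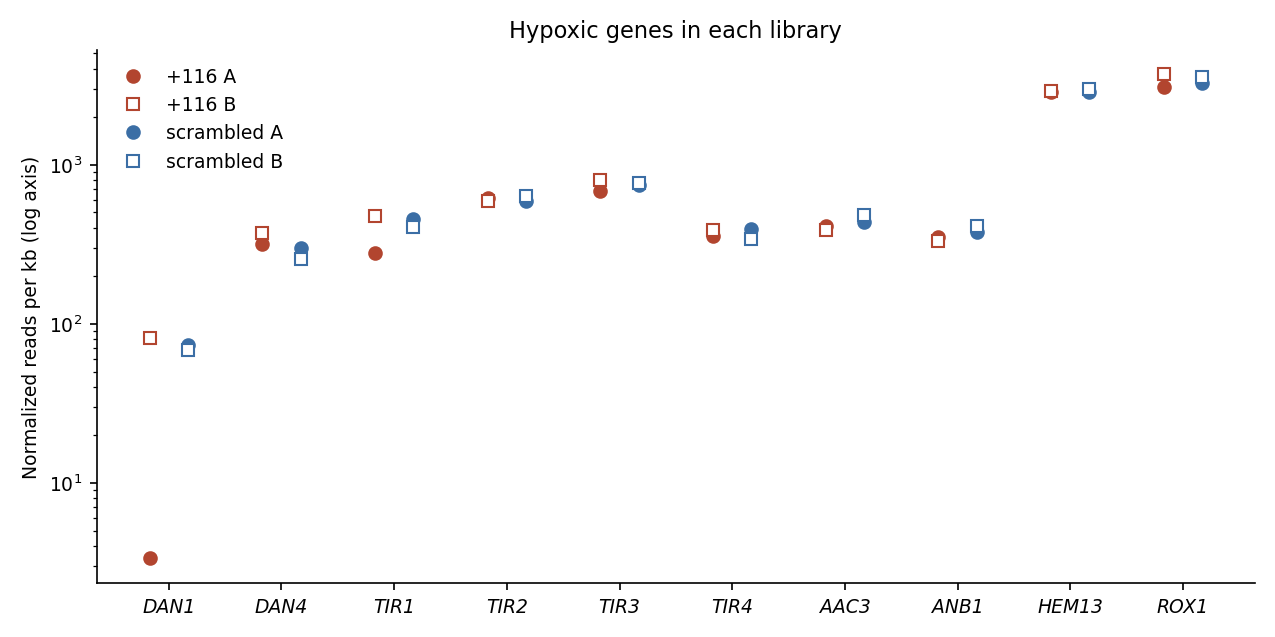
Normalized reads per kb of coding length on a log axis for each hypoxic gene, with +116 libraries to the left (red) and scrambled libraries to the right (blue); circles are library A and squares library B. DAN1 stands at 3.34 reads per kb in +116 A, against 68.4 to 80.7 in the other 3 libraries.

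ROX1 (YPR065W) encodes the repressor of the regulon, a DNA-binding protein of the HMG box type. It had 3404 and 4079 normalized reads in +116 A and B, against 3614 and 3951 in scrambled A and B. The +116 pair enclosed the scrambled pair. The log2 fold was −0.02 with a standard error (SE) of 0.075 (limma adjusted p = 0.900, 95% interval −0.18 to 0.14).

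HEM13 (YDR044W), a gene that Rox1 represses, encodes coproporphyrinogen oxidase, which carries out a heme synthesis step that consumes oxygen. It had 2804 and 2875 normalized reads in +116 A and B and 2827 and 2938 in scrambled A and B. This was the narrowest gene of the group, and its log2 fold of −0.02 had an SE of 0.053 (limma adjusted p = 0.846, 95% interval −0.14 to 0.09).

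ANB1 (YJR047C) encodes the hypoxic form of the translation factor eIF5A and carries 2 of the 3 Rox1 cores shown above. It had 165.0 and 156.9 normalized reads in +116 A and B, and 179.1 and 193.9 in scrambled A and B. The groups did not overlap, with +116 lower, as was so for 26.3% of tested genes, and the log2 fold of −0.21 (SE 0.121) did not pass (limma adjusted p = 0.327). Its aerobic counterpart HYP2 had 38480 and 40383 normalized reads in +116 A and B and 40682 and 41877 in scrambled A and B. The coding lengths of ANB1 and HYP2 are equal and 90.9% of their bases are identical, so reads of the far more abundant HYP2 could add to ANB1 where counting did not separate them. No stretch of 50 bases of ANB1 occurs elsewhere in R64, and the read length is not given in the sources used here.

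AAC3 (YBR085W) encodes the hypoxic carrier that exchanges ADP and ATP across the mitochondrial inner membrane. It had 380.0 and 358.0 normalized reads in +116 A and B, and 399.8 and 443.7 in scrambled A and B. The +116 values were lower without overlap, and the log2 fold of −0.19 (SE 0.093) did not pass (limma adjusted p = 0.253). PET9, the main carrier gene in air, had 17353 and 18141 normalized reads in +116 libraries and 17761 and 18075 in scrambled ones, with a log2 fold of −0.01. The log2 fold of AAC1, the remaining isoform gene, was 0.18 (limma adjusted p = 0.237). PET9 and AAC1 share 78.9% and 68.6% of aligned bases with AAC3, and neither shares a 50-base stretch with it.

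DAN4 (YJR151C) encodes a long serine- and threonine-rich wall mannoprotein of the anaerobic cell. It had 1101 and 1292 normalized reads in +116 A and B, against 1038 and 890.8 in scrambled A and B. Both +116 libraries were above both scrambled ones, an order that 27.3% of tested genes had. The log2 fold was 0.31 with an SE of 0.089, and it had the lowest p of the group (limma adjusted p = 0.0904). DAN4 passed the threshold without +116 A (log2 fold 0.43, limma adjusted p = 5.6e-04), and the log2 fold was 0.19 without +116 B (limma adjusted p = 0.255) and 0.20 without scrambled B (limma adjusted p = 0.661). In each such fit the group left with 1 library is assumed to vary like the other group. The spread then comes from the pair of that other group, drawn by limma towards the trend over all tested genes. At 3486 bp DAN4 is the longest of the 10 genes. Folds rose with gene length across this table (Spearman rho 0.550 over 5806 genes, which are not independent replicates), and with that trend removed the DAN4 value was 0.21 (limma adjusted p = 0.369).

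DAN1 (YJR150C) encodes a wall mannoprotein known to be nearly silent in air. It had 3.0 and 72.4 normalized reads in +116 A and B, against 66.0 and 61.4 in scrambled A and B. The low value stands on 3 reads of 37077366, with an exact Poisson 95% interval of 0.619 to 8.77 reads, which covers counting error only. In +116 B the interval was 56.3 to 90.7 reads around 72. The 3 libraries other than +116 A have intervals that overlap each other, and that of +116 A lies below all of them. Within the +116 guide, B was 24.1 times A, with an exact conditional binomial 95% interval of 7.94 to 119.8 for counting error.

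Between the guides, DAN1 had a log2 fold of −1.92 (SE 0.844, limma adjusted p = 0.209), and 1 library set this difference. Its mean was 37.7 ± 49.1 normalized reads with +116 and 63.7 ± 3.30 with scrambled (SD, n = 2 each). With +116 A left out, the DAN1 value was 0.18 (limma adjusted p = 0.747). With +116 B left out it had −4.01 (limma adjusted p = 1.8e-19), where +116 A alone stands for its guide and is assumed to vary like the scrambled pair. On recovered whole reads, where means are compared before the logarithm, edgeR gave a log2 fold of −0.76 (adjusted p = 0.418).

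The loss of DAN1 reads in +116 A did not extend to its neighbours in the R64 gene order. YJR149W, on one side, had 909.9 and 752.3 normalized reads in +116 A and B and 762.4 and 773.5 in scrambled A and B. DAN4, on the other side, had its values above, and DAL5, an allantoate permease gene further on, had 646.9 and 641.7 in +116 A and B and 628.6 and 680.4 in scrambled A and B. These flanking genes were thus all present in +116 A. YJR149W was highest in that library, and DAN4 and DAL5 lay within the range of the other libraries. DAL5 was named after its values were seen. DAN1 shares 72.5% of aligned bases with DAN4 and at most 62.9% with a TIR gene, and no 50-base stretch of it occurs elsewhere in R64.

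TIR1 (YER011W) encodes a wall mannoprotein of the same family that also responds to cold. It had 213.0 and 361.1 normalized reads in +116 A and B, against 347.3 and 310.1 in scrambled A and B. As with DAN1, +116 A was the low library, here by 1.70 times against +116 B. The log2 fold was −0.24 (SE 0.177, limma adjusted p = 0.450). Without +116 A it was 0.14, and without +116 B it was −0.62. In each of these fits the +116 guide has 1 library, which is assumed to vary like the scrambled pair. TIR1 shares 60.4% of aligned bases with DAN1, and its neighbour genes YER010C and PRE1 had log2 folds of −0.09 and −0.03.

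TIR2, TIR3 and TIR4 encode further mannoproteins of the family, and none of them separated the guides. TIR2 (YOR010C) had 465.0 and 444.5 normalized reads in +116 A and B and 443.2 and 481.0 in scrambled A and B. TIR3 (YIL011W) had 548.9 and 643.7 in +116 A and B and 598.7 and 619.1 in scrambled A and B. TIR4 (YOR009W) had 519.9 and 564.2 in +116 A and B and 578.8 and 498.5 in scrambled A and B. In all 3 genes the groups overlapped. Their log2 folds were −0.02, −0.03 and 0.01, with SEs of 0.087, 0.088 and 0.092 (lowest limma adjusted p = 0.849). TIR4, TIR2 and the sterol transporter gene AUS1 follow one another in R64, and the log2 fold of AUS1 was 0.16 (limma adjusted p = 0.161).

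**Figure D2:**
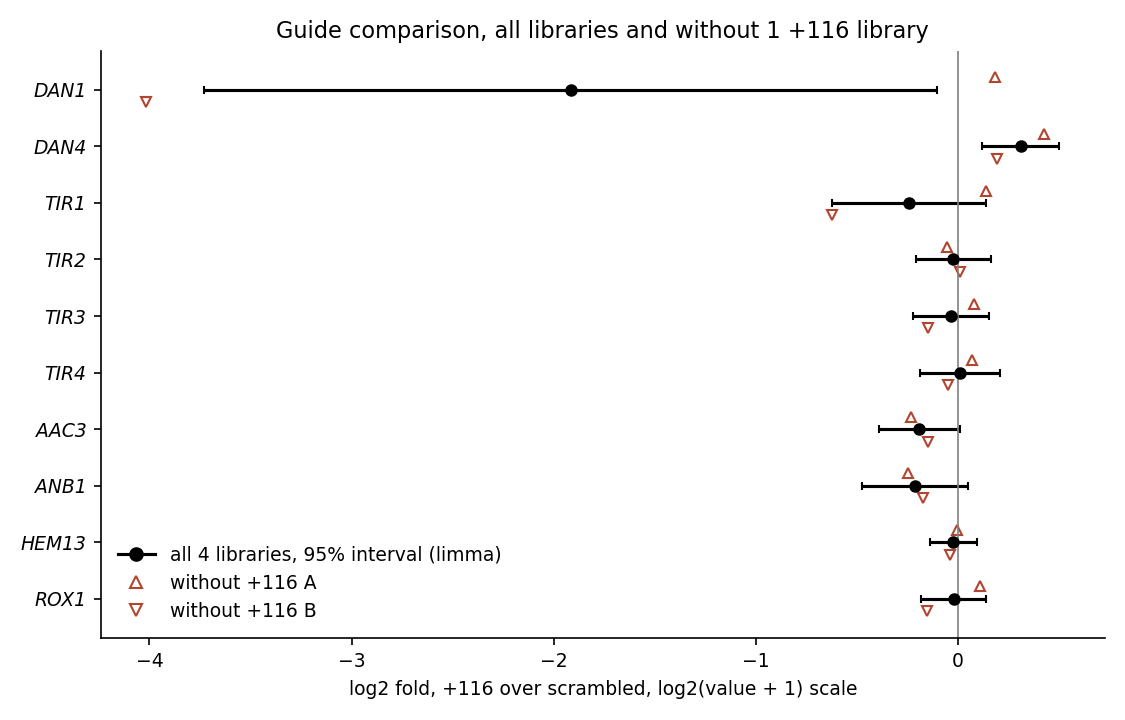
Log2 fold of each hypoxic gene, +116 over scrambled, on the log2(value + 1) scale, as a black point with its limma 95% interval; red triangles give the fold without +116 A (up) and without +116 B (down). For DAN1 the triangles lie at 0.18 and −4.01, and for TIR1 at 0.14 and −0.62. Those of HEM13 and TIR2 stay near 0. The DAN1 interval depends on the variance trend of limma, without which its unadjusted limma p was 0.262.

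Counted together, 0 of the 10 genes were called higher and 0 lower by limma, where 0.510% and 0.335% of tested genes were. At an unadjusted p under 0.05 limma had 2 (DAN4 and DAN1), edgeR 1 and DESeq2 1, and neither of the other tools called a gene after adjustment, though DESeq2 gave an adjusted p for ROX1 and HEM13 only. Among all tested genes 21.8% had an unadjusted limma p under 0.05. Without the variance trend of limma the unadjusted limma p was 0.0603 for DAN4 and 0.262 for DAN1. With robust empirical Bayes in limma it was 0.0012 for DAN4 and 0.421 for DAN1. Groups did not overlap in 3 of the 10, 1 with +116 higher and 2 with +116 lower, against 53.5% of tested genes. The median log2 fold of the 10 was −0.03, and that of all tested genes was 0.0013. Shares of these sizes do not set the group apart from the background.

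Comparing the libraries of each guide showed where the spread of these genes lay. Within the scrambled guide the higher library exceeded the lower by 1.03 to 1.17 times over the 10 genes. Within the +116 guide the ratio was 1.03 to 1.20 times for 8 genes, with TIR1 and DAN1 beyond it. The median ratio over the 10 was 1.13 within +116 and 1.09 within scrambled, where all tested genes had 1.05 within each. All members but ROX1 and HEM13 lay above at most 27.2% of tested genes in reads per kb. Genes with few reads have wider ratios from counting error. Neither these ratios nor the ranks below were set against genes of like abundance. On the log2(value + 1) scale the DAN1 difference of 4.20 was the largest among the 6277 tested genes within +116, and the next was YPL205C at 3.32. Within scrambled the DAN1 difference was 0.10, and 66.6% of tested genes had a smaller one. The TIR1 difference of 0.76 within +116 exceeded that of 98.2% of tested genes, and ROX1, with +116 A lower by 0.26, exceeded 90.4%.

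**Figure D3:**
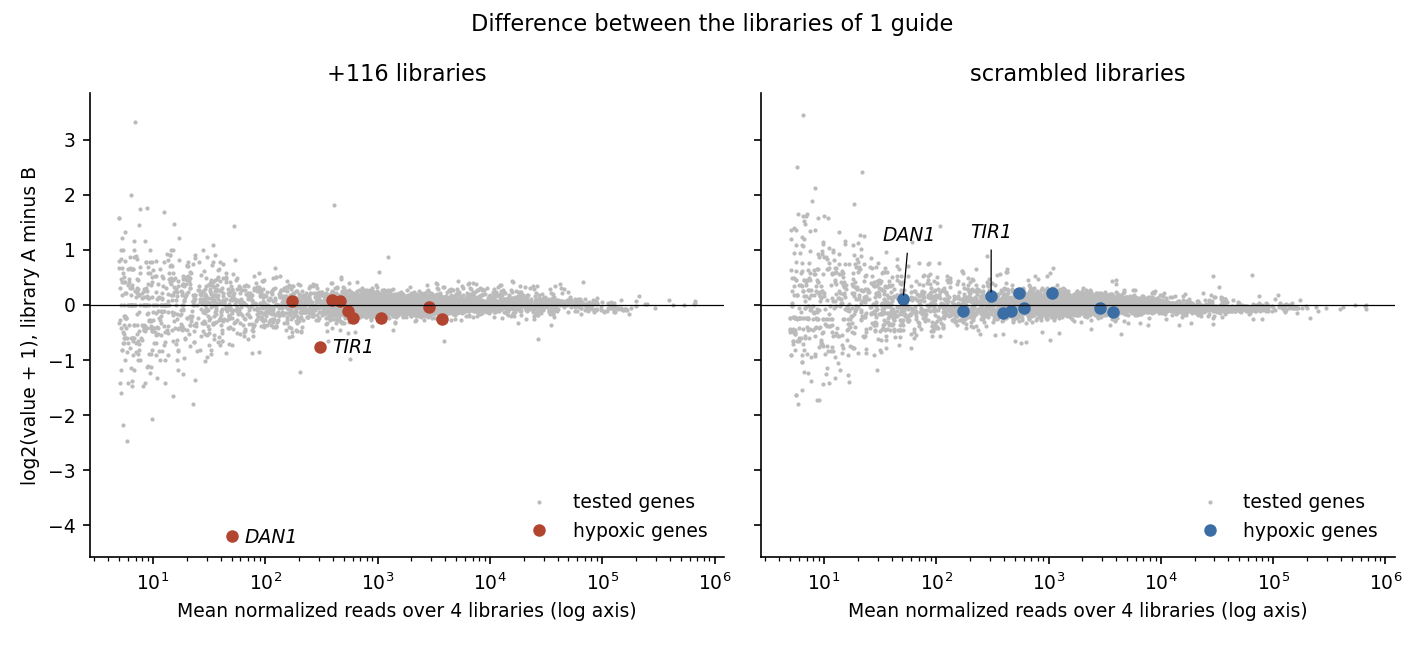
Difference of log2(value + 1) between libraries A and B of the +116 guide (left) and the scrambled guide (right) against the mean normalized reads on a log axis, for all tested genes (grey) and the hypoxic genes (coloured). DAN1 lies 4.20 below 0 in the +116 panel and near the line in the scrambled panel.

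Genes with the most similar pattern over the 4 libraries were found by the Euclidean distance between centred log2 profiles. The mean profile of the DAN and TIR genes, which DAN1 dominates, was nearest to the small nucleolar RNA snR87 (distance 0.109), the seripauperin gene PAU1 (0.125) and HMS1 (0.144). PAU1 had 14.0 and 24.1 normalized reads in +116 A and B and 23.5 and 23.0 in scrambled A and B. It was lowest in +116 A, on 14 reads, against 24 in +116 B and 26 and 21 in scrambled A and B. Within +116 the ratio was 1.72 for PAU1 and 24.1 for DAN1, and the counting error of PAU1 was not tested. All 50-base stretches of PAU1 occur in other places of R64, so its value is uncertain. The ROX1 profile was nearest to BIO2 (0.0293), THI7 (0.0476) and the noncoding RNA SRG1 (0.0490). With 4 points, many genes lie close by.

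In the rest of the oxygen pathway, 46 genes in 4 lists, limma called 0 genes, where it called 0.844% of all tested genes. From these lists edgeR and DESeq2 each called TUP1 only. Over all 6277 tested genes edgeR called 106 higher and 60 lower, and DESeq2 called 100 and 80, so a single call is no more than the background. Regulators of oxygen-dependent transcription had 11 of 14 log2 folds above 0 and a median of 0.12, where 3169 of all 6277 tested genes were above 0. At an unadjusted limma p under 0.05, 722 of all 6277 tested genes were higher and 644 lower. Among the regulators there were 7 higher and 2 lower at that threshold. TUP1, the corepressor gene that acts with Rox1, was first among them, with 9540 and 9973 normalized reads in +116 A and B against 8805 and 7395 in scrambled A and B. Its log2 fold of 0.27 (SE 0.069) had a limma adjusted p of 0.0659, with edgeR at 0.0499 and DESeq2 at 0.0232. The +116 values were above the scrambled ones in 10 of the 14 regulators, an order that 27.3% of all tested genes had. SPT23, which encodes a membrane-bound activator of OLE1, had 0.16 (limma adjusted p = 0.121), and HAP3, a subunit of the respiratory activator complex, had −0.21 (limma adjusted p = 0.145). HAP1 and UPC2 each had 0.15 (limma adjusted p = 0.158 and 0.202). The regulators have a median length of 1968 bp, and with the length trend removed their median log2 fold was 0.06. Of the 14, 11 were then above 0, where 2725 of 5806 tested genes with a length were.

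The 7 other heme synthesis genes, with HEM13 among their pathway, varied little. Their log2 folds ran from −0.13 (HEM4) to 0.01 (HEM14), with a median of −0.04 and a lowest limma adjusted p of 0.286. HEM12 and HEM1, which encode the decarboxylase before Hem13 and the first enzyme, had −0.05 and −0.05.

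Of 17 other oxygen-repressed genes, 11 had a log2 fold below 0, with a median of −0.06, where 3108 of all 6277 tested genes were below 0. The 17 genes have a median length of 375 bp. With the length trend removed, 10 of the 17 were below 0 and their median was −0.01, where 3081 of 5806 tested genes with a length were below 0. CYC7, the hypoxic isoform of cytochrome c, had 183.0 and 162.9 normalized reads in +116 A and B, against 114.9 and 141.3 in scrambled A and B. Its log2 fold of 0.44 (SE 0.142) was the highest of the list and did not pass (limma adjusted p = 0.116). PAU4 had the lowest, −0.45 (limma adjusted p = 0.182), and 62.1% of its 50-base stretches occur elsewhere in R64. AUS1, which takes up sterol in the absence of oxygen, had the value above. DAN2 and DAN3, which RefSeq names PAU23 and PAU24, had −0.19 and −0.20 (limma adjusted p = 0.313 and 0.665).

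The 8 aerobic counterparts had 6 log2 folds below 0 and a median of −0.05, where 3108 of all 6277 tested genes were below 0. CWP2, a wall mannoprotein gene of aerobic cells, had 67651 and 71951 normalized reads in +116 A and B, against 79186 and 77400 in scrambled A and B. This was a log2 fold of −0.17 (SE 0.060, limma adjusted p = 0.144). COX5A, the aerobic isoform of a cytochrome oxidase subunit, and CYC1, the aerobic cytochrome c gene beside ANB1, had −0.15 and −0.14 (limma adjusted p = 0.145 and 0.169). With the length trend removed, 5 of the 8 folds were above 0 and the median was 0.01, where 2725 of 5806 tested genes with a length were above 0.

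**Figure D4:**
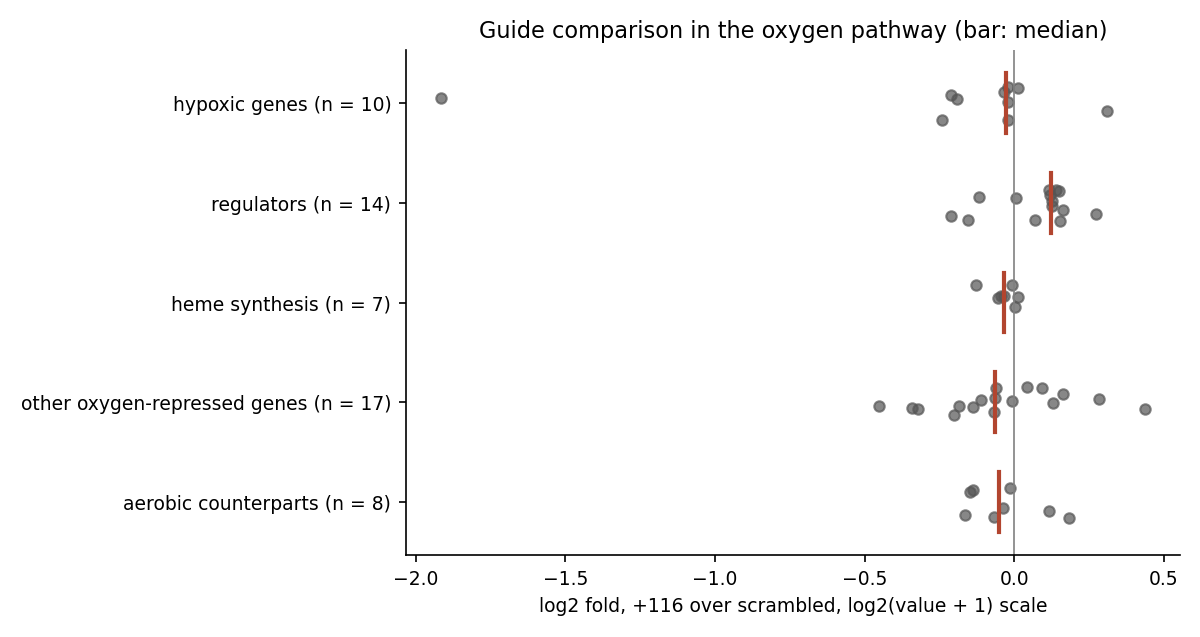
Log2 folds, +116 over scrambled, on the log2(value + 1) scale, for the 10 hypoxic genes and the 4 lists of the oxygen pathway; each point is a gene (spread vertically for view) and each red bar a median. The medians lie between −0.06 and 0.12, and DAN1 stands apart at −1.92.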

How the data were processed

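RNA of 4 libraries was measured, 2 with the +116 guide and 2 with the scrambled guide. The authors deposited 1 table of normalized read counts, a signal that is never negative. Per the submitters' processing notes, bcl2fastq 1.8.4, Trimmomatic 0.30, TopHat2 2.0.8, Bowtie2, Picard 1.84 and DESeq2 were used. The sources used here do not give the build, annotation, counter or strand setting. Every value of each column (100%) was a whole multiple of 1 step, within 1e-06 of a read, which gave back whole reads.

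Genes with a mean of at least 5 were tested on log2(value + 1) with limma 3.58.1 (R 4.3.3) and its variance trend. This scale understates changes of low genes. Tests were two-sided, with Benjamini-Hochberg adjustment over all tested genes and a threshold of 0.05. edgeR 4.0.16 (quasi-likelihood) and DESeq2 1.42.0 on recovered reads were among 16 alternatives. Lengths, names, gene order and sequences come from RefSeq R64, in which 6048 of 7126 rows matched by locus tag. Named genes were the 10 members, and from each list every called gene and the 3 lowest p-values, plus adjoining genes, isoforms and the nearest profiles. Others named are further examples from the lists, chosen with their values in view. Members and lists were chosen with earlier results of these data known. The test was tried on simulated data first.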

Additional observations from a re-analysis of the deposited data

How the results depend on the processing

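Of the 10 genes, AAC3, ANB1 and DAN4 kept their direction in all alternatives that gave an adjusted p, and no alternative called AAC3, ANB1, TIR2, TIR3, TIR4, HEM13 or ROX1. DESeq2 gave no adjusted p for 8 of the 10. Leaving out each library in turn gave log2 folds from −4.01 to 0.18 for DAN1, −0.62 to 0.14 for TIR1, −0.081 to 0.037 for TIR2, −0.15 to 0.080 for TIR3, −0.10 to 0.12 for TIR4, −0.049 to 0.0062 for HEM13 and −0.15 to 0.11 for ROX1. With the length trend removed, signs turned for TIR2 (0.030), TIR3 (0.010), TIR4 (−0.011) and HEM13 (0.0042), and upper-quartile scaling turned TIR4 (−0.0087). The folds whose signs turned with the length trend removed or with upper-quartile scaling lie within their errors. A pseudocount of 5 gave DAN1 −1.46.

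Members called numbered 0 to 1 higher and 0 to 2 lower when 1 library was left out, and robust empirical Bayes called 1 higher, DAN4. Regulators called higher numbered 0 to 1 without 1 library and 1 (TUP1) with robust empirical Bayes, edgeR and DESeq2. All tested genes called higher and lower were 2 and 5 without a filter, 64 and 44 at a mean of at least 20, 0 and 1 without a variance trend, and 245 and 165 with robust empirical Bayes. DESeq2 called 100 and 80, edgeR 106 and 60, limma after upper-quartile scaling 50 and 77, and limma on length-corrected values 0 and 1. They were 0 to 207 and 0 to 104 without 1 library. The causes of these moves were not tested.

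The letters A and B are not said to pair libraries, and their differences correlated at −0.04 over 6277 genes. With the letter as a replicate block, 170 genes were called higher and 88 lower, among members 1 higher (DAN4, limma adjusted p = 0.0073) and 1 lower (DAN1, log2 fold −1.92, limma adjusted p = 2.5e-08), and 1 regulator higher (TUP1). For DAN1, libraries A and B differed by 4.20 in log2(value + 1) within +116 and by 0.10 within scrambled. The letter therefore does not account for its spread. Its p in this fit rests on the variance that limma draws from all tested genes, and does not measure the spread of DAN1. DAN1 had 3 to 73 reads a library, the fewest of the 10 genes, and its log2 fold was 0.18 without +116 A.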

Other observations

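DAN1 was not alone in falling away in 1 of the +116 libraries, and the genes named here were chosen after their values were seen. COS12 (YGL263W), a member of the COS family of membrane protein genes, had 597.9 and 170.0 normalized reads in +116 A and B, against 443.2 and 414.2 in scrambled A and B. Here the low library was +116 B. YGL262W, whose name places it next to COS12, had 67.0 and 24.1 in +116 A and B and 56.1 and 64.6 in scrambled A and B, with the same low library. The higher +116 library exceeded the lower by 3.52 times for COS12 and 2.78 times for YGL262W, and neither gene was called between the guides (limma adjusted p = 0.521 and 0.361). COS genes have related copies that can share reads, so the COS12 value is uncertain.

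PRM7, a pheromone-regulated membrane protein gene, had 294.0 and 581.3 normalized reads in +116 A and B, against 541.7 and 872.2 in scrambled A and B. It was low in +116 A, as DAN1 and TIR1 were, and it also differed between the scrambled libraries, so the spread was not limited to 1 guide.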
